A study of Mus musculus with 16 samples.

Results

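Gal, Tdh, Smim24 and 1810007D17Rik are 4 of the 24411 genes in a table of read counts from mouse pancreas. They were chosen by their values in these data, for their large fall in obese leptin-deficient mice against lean mice. CPM here means counts per M reads (M is 1e6), with library sizes scaled between mice. The ranking took genes that were lower at an adjusted p below 0.05 with a mean log2 CPM of at least 1. It also required no overlap between lean and obese mice. Among the 112 genes that met this, the 4 genes hold the first 4 places by size of the fall. All 4 passed the filter on low counts and are among the 13660 genes tested. Because the comparison of obese with lean mice chose them, their values in it are described here without a test.

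RNA was sequenced from whole pancreas of 16 male C57BL6/J mice aged 12 weeks. The WT group held 5 lean mice on control water, and the Lep(ob/ob) group held 7 mice on control water. The last group (CCKRi) held 4 Lep(ob/ob) mice with a cholecystokinin (CCK) receptor antagonist in the drinking water for 6 weeks, from 6 weeks of age. Proglumide was given at 0.1 mg/ml to 2 of them and lorglumide at 0.05 mg/ml to the other 2. Lep(ob/ob) mice lack functional leptin, the adipose hormone that restrains feeding, in every tissue. The sources differ on the origin of the WT mice, which the labels give as bred in house from purchased stock and the study's methods as purchased, like the Lep(ob/ob) mice. Under the labels' account, genotype and origin cannot be told apart. WT mice weighed 27.68 ± 3.22 g (SD, n = 5), Lep(ob/ob) mice 50.96 ± 1.98 g (SD, n = 7) and CCKRi mice 54.8 ± 2.22 g (SD, n = 4). The labels place each library in batch A (3 WT, 4 Lep(ob/ob)) or batch B (2 WT, 3 Lep(ob/ob) and all 4 CCKRi), without saying what a batch is.

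Libraries held 19.2 to 34.5 M counts in batch A and 9.87 to 15.9 M in batch B. The summed level of 13 acinar cell markers, which mark the enzyme-making cells that fill most of the gland, was 744400 to 817100 CPM in WT mice of batch A and 214000 to 384100 CPM in WT mice of batch B. In Lep(ob/ob) mice it was 481600 to 750500 CPM in batch A and 189400 to 454600 CPM in batch B, and in CCKRi mice 107800 to 315700 CPM. The acinar share of the counts thus moved with the batch, and 9 of the 13 markers were lower in batch B at an adjusted p below 0.05, as 35.7% of all genes tested were called for batch in either direction. Between Lep(ob/ob) and WT mice, the acinar markers Ptf1a (log2 fold change -1.03, adjusted p = 0.00561, edgeR) and Amy2a5 (-1.05, adjusted p = 0.0146) were also lower and 0 were higher, with a median of -0.36 over the 13. The summed level of 15 islet markers was 1364 to 2000 CPM in WT mice, 2749 to 13930 CPM in Lep(ob/ob) mice and 1634 to 15640 CPM in CCKRi mice. Among the CCKRi mice the library of mouse 69 (proglumide) stood apart, with an islet sum of 1634 CPM against 6583 to 15640 in the other 3, an adipocyte marker sum of 2710 CPM against 424.7 to 746.6, and the lowest acinar sum. Lep(ob/ob) mouse 463 of batch B stood apart as well, with the highest adipocyte sum of its group (3769 CPM against 203.1 to 1187), the highest macrophage (912.8 against 89.03 to 405.6) and fibroblast sums (1397 against 350.9 to 1071), and the lowest acinar and islet sums. In a bulk sample, fewer cells of a type and less RNA per cell cannot be told apart, and the part of the cell mixture in the values below was not tested.

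The 4 genes have unlike products. Gal encodes galanin, a neuropeptide that is released by nerves in the gut and pancreas, acts on the receptors GALR1, GALR2 and GALR3, and is known to restrain insulin release. Tdh encodes mitochondrial L-threonine dehydrogenase, the enzyme that starts the breakdown of threonine to glycine and acetyl-CoA, a route that mouse embryonic stem cells depend on. Smim24 encodes a small integral membrane protein. 1810007D17Rik is a long intergenic non-coding RNA.

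In the GENCODE annotation of GRCm38, the build to which mm10 corresponds, Gal lies at chr19:3409915-3414544 on the minus strand, with 788 exonic bases and up to 6 exons in a transcript. Tdh lies at chr14:63492347-63509092 on the minus strand, with 2615 exonic bases and up to 9 exons. Smim24 lies at chr10:81393051-81395392 on the plus strand, with 1058 exonic bases and up to 4 exons. 1810007D17Rik lies at chr19:58606329-58629753 on the plus strand, with 742 exonic bases and 3 exons. No other annotated gene overlaps Gal, Smim24 or 1810007D17Rik, and none of their stretches of 50 bases occurs in a transcript of another gene. Tdh is overlapped by the antisense gene Gm17232, and 10.2% of its stretches of 50 bases also occur in transcripts of Gm13929. The values of those 2 genes were not analysed here, and the strand setting of the counting is not given in the sources used here, so the count of Tdh carries that uncertainty.

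Promoter windows, from 250 bases before to 50 bases after the start of the gene, come from RefSeq (GRCm38.p6), where 3 of the 4 genes were matched. They are shown because these genes were low together in obese mice, so that their start regions can be read side by side. Capitals mark matches to 6 motifs searched on both strands.

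Gal, chr19:3414495-3414794, minus strand: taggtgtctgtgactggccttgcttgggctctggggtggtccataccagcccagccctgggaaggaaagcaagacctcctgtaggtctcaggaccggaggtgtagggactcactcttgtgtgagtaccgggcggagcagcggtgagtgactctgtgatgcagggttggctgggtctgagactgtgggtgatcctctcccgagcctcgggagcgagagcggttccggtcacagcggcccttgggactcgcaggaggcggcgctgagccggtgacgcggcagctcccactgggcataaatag

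Smim24, chr10:81392814-81393113, plus strand: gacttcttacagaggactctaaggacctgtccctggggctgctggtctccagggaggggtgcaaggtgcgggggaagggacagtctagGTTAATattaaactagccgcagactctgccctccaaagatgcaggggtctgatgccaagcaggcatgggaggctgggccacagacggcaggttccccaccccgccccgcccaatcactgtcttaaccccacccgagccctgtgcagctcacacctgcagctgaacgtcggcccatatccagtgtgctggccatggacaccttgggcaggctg

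1810007D17Rik, chr19:58606079-58606378, plus strand: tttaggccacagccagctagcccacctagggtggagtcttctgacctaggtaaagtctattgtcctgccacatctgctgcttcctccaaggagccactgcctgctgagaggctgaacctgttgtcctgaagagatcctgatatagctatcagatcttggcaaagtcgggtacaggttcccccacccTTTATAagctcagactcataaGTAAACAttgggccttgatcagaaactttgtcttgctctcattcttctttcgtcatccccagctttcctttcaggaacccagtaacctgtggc

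The motifs were STAT (TTCNNNGAA), FOX (TGTTTAC), CRE (TGACGTCA), NR5A2 (TCAAGGTCA), HNF1 (GTTAAT) and the TATA box (TATAAA). The window of Gal held none of the 6, that of Smim24 held 1 HNF1 match, and that of 1810007D17Rik held 1 FOX and 1 TATA box match, both on the opposite strand. Among 32851 promoter windows of the same length, 7.1% held the HNF1 motif, 3.65% the FOX motif, 13.6% the TATA box, 8.3% the STAT motif, 1.79% the CRE and 0.423% the NR5A2 motif. No motif was thus held by 2 of the 3 windows. G and C made up 63.3% of the window of Gal, 61.3% of that of Smim24 and 49.7% of that of 1810007D17Rik, against a median of 52.7% over all windows. A match is a description of the letters only.

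The question of the first comparison is how far the levels of these genes lie apart between obese and lean pancreas in each mouse. Values are the authors' normalized counts, which are raw counts divided by 1 size factor per mouse. In WT mice, Gal had 2401, 1814 and 2942 normalized counts in batch A and 2110 and 1516 in batch B. In Lep(ob/ob) mice it had 413.6, 556.6, 312.8 and 462.8 in batch A and 143.5, 153.9 and 264.7 in batch B. The lowest WT mouse was 2.72 times the highest Lep(ob/ob) mouse, and the groups did not overlap in either batch. The mean was 2157 ± 549.2 (SD, n = 5) in WT mice and 329.7 ± 156.2 (SD, n = 7) in Lep(ob/ob) mice, which is 15.3% of the WT mean. The fitted log2 fold change, with batch as a covariate, was -2.80 (standard error, SE, 0.25).

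Tdh had 160.2, 196.5 and 278.8 normalized counts in WT mice of batch A and 413.5 and 230.3 in batch B. Lep(ob/ob) mice had 30.4, 57.6, 29.2 and 65.3 in batch A and 20.3, 4.94 and 18.02 in batch B. Every Lep(ob/ob) mouse of batch B was below every one of batch A, and all 7 were below every WT mouse. The lowest value, 4.94, came from mouse 463, and without that mouse the fitted log2 fold change was -2.79. The mean was 255.9 ± 98.39 (SD, n = 5) in WT mice and 32.3 ± 21.8 (SD, n = 7) in Lep(ob/ob) mice, a fitted log2 fold change of -3.11 (SE 0.41). The raw counts behind the Lep(ob/ob) values of batch B were only 7 to 16.

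Smim24 had 518.2, 318.8 and 415.7 normalized counts in WT mice of batch A, but 87.6 and 67.0 in those of batch B. Lep(ob/ob) mice had 39.3, 37.4, 20.2 and 51.4 in batch A and 35.2, 30.4 and 37.2 in batch B. The obese mice were alike in both batches, whereas the lean mice of batch A were 5.4 times those of batch B by their means and did not overlap with them. The gap between the lowest WT and the highest Lep(ob/ob) mouse was therefore narrow over all mice, at 1.3 times, and 6.2 times within batch A. The fitted log2 fold change was -2.69 (SE 0.41).

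1810007D17Rik had 660.9, 265.9 and 561.6 normalized counts in WT mice of batch A and 1471 and 1516 in those of batch B. Lep(ob/ob) mice had 101.5, 76.3, 43.8 and 71.0 in batch A and 77.2, 53.0 and 185.9 in batch B. Here too the lean mice differed between batches while the obese mice overlapped, but the lean mice of batch B were the higher ones, at 3.01 times those of batch A. The fitted log2 fold change was -3.25 (SE 0.36), the lowest of the 4 and the first of the 112 genes described above.

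**Figure D1:**
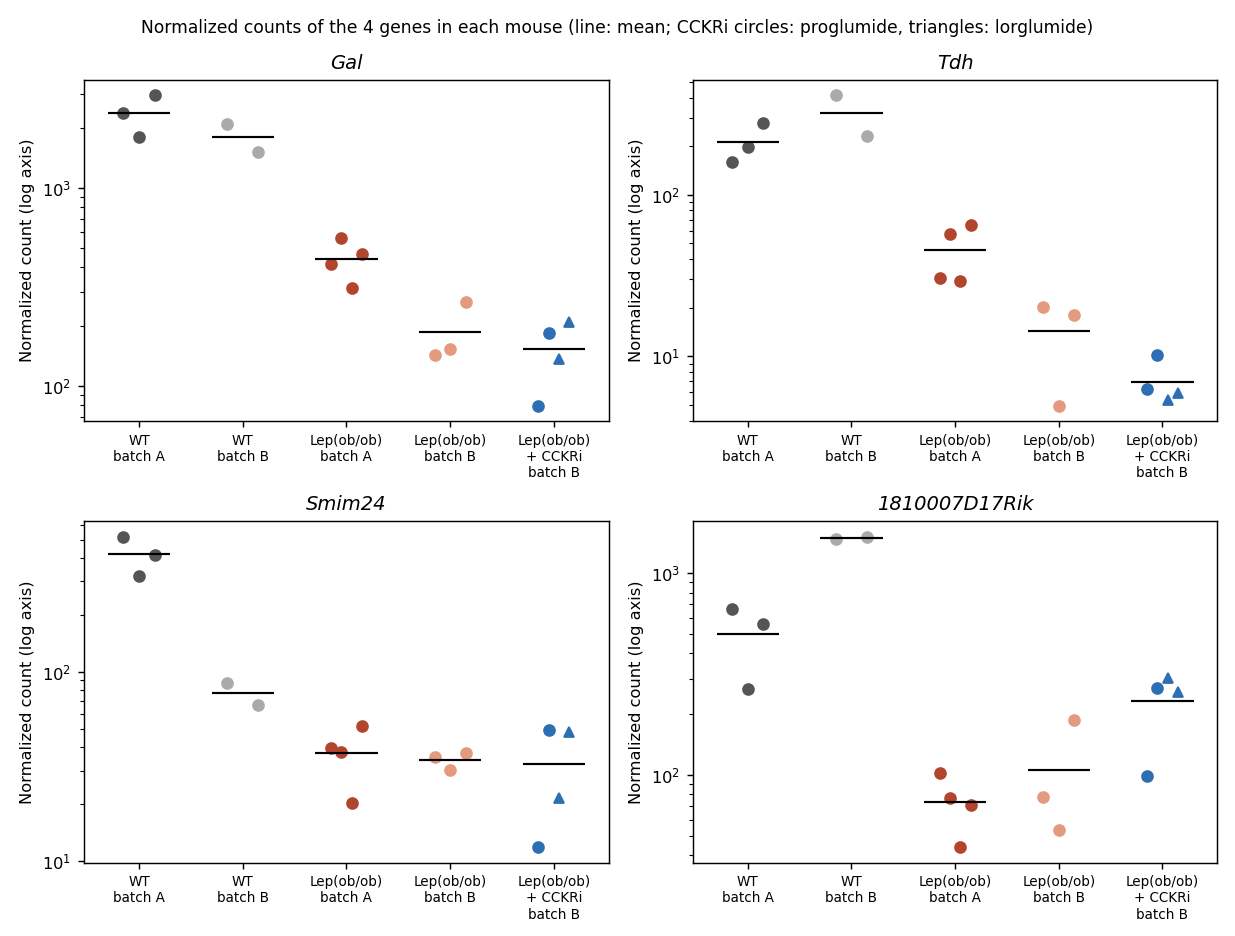
Normalized counts (log axis) of Gal, Tdh, Smim24 and 1810007D17Rik in each of the 16 mice, by group and batch, with the mean of each set as a line and lorglumide mice as triangles. All WT mice lie above all Lep(ob/ob) mice in each panel, the WT mice of batch B are low for Smim24 (67.0 and 87.6) and high for 1810007D17Rik (1471 and 1516), and the CCKRi mice overlap with the Lep(ob/ob) mice of batch B.

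Every Lep(ob/ob) mouse was below every WT mouse for all 4 genes, as for 1.12% of all genes tested, and within each of the 2 batches, as for 3.70% of them. Of all genes tested, 3.14% were lower in Lep(ob/ob) than in WT mice at an adjusted p below 0.05. These 429 genes fell to 234 without WT mouse 58, 240 without WT mouse 59, 268 without WT mouse 5494 and 275 without Lep(ob/ob) mouse 417, and by over 1.5 times also without WT mouse 5489. Nothing is read from these counts, since the same contrast chose the 4 genes.

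Just outside the first 4 places stood Cela3a, a pancreatic elastase, with a log2 fold change of -2.29 (SE 0.43). It was followed by the kallikrein gene Klk1b11 at -2.21, the transcription factor Nfil3 at -2.02, the N-acetyltransferase gene Nat8 at -2.01 and the cadherin gene Fat3 at -1.98. The step from Smim24 (-2.69) to Cela3a was about as large as the standard error of either. Of these 5, Nat8 was higher in CCKRi than in Lep(ob/ob) mice (log2 fold change 1.60, adjusted p = 0.0439, edgeR), a call lost in 10 of 11 fits that left out 1 mouse. Of all genes tested, 0.0586% were called there, and Nat8 is listed for its low values in the same Lep(ob/ob) mice, which favours a higher value in the treated ones, so nothing is read from it.

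Per kilobase of exon, Gal was the highest of the 4 in WT mice, with 2737 ± 697 normalized counts per kb (SD, n = 5). 1810007D17Rik followed with 1206 ± 762.1, Smim24 with 266.1 ± 188.5 and Tdh with 97.8 ± 37.6 (SD, n = 5 each). The ranges of neighbours in this order overlapped, with 1924 to 3733 per kb for Gal against 358.4 to 2043 for 1810007D17Rik, and 63.4 to 489.8 for Smim24 against 61.3 to 158.1 for Tdh. Within batch B the order turned, since Tdh (158.1 and 88.08 per kb) was above Smim24 (82.77 and 63.37) in both WT mice, and 1810007D17Rik (2043) was above Gal (1924) in WT mouse 59. In each Lep(ob/ob) mouse the order was Gal, 1810007D17Rik, Smim24 and Tdh, with 418.4 ± 198.2, 117.2 ± 63.9, 33.9 ± 8.93 and 12.3 ± 8.32 per kb (SD, n = 7). The mean of Gal in obese mice (418.4 per kb) was above the means of Smim24 and Tdh in lean mice.

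The next question is whether the distance between obese and lean mice was the same in both batches. The ratio of the WT to the Lep(ob/ob) mean of Gal was 5.47 in batch A and 9.67 in batch B. For Tdh it was 4.64 and 22.3, and for 1810007D17Rik 6.78 and 14.2. Smim24 went the other way, with 11.3 in batch A and 2.26 in batch B. Fitted within each batch, the log2 fold change of Gal was -2.41 (SE 0.20) in batch A and -3.31 (0.41) in batch B. It was -2.16 (0.30) and -4.58 (0.50) for Tdh, and -2.74 (0.32) and -3.86 (0.55) for 1810007D17Rik. For Smim24 it was -3.46 (0.26) and -1.21 (0.52), a change of over 2 units. All 4 genes were lower in Lep(ob/ob) mice in both batches.

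The difference of these differences was tested as the interaction of genotype and batch. The genes were chosen by another contrast, but in the same WT and Lep(ob/ob) mice, so the p-values of the interaction are descriptions. The interaction was -2.36 on the log2 scale (SE 0.61, unadjusted p = 0.00135) for Tdh and 2.32 (SE 0.61, unadjusted p = 0.00148) for Smim24. Neither passed after adjustment over all genes (edgeR quasi-likelihood test, adjusted p = 0.438 for both). Gal had -0.82 (SE 0.47, adjusted p = 0.482) and 1810007D17Rik had -1.06 (SE 0.67, adjusted p = 0.511). With edgeR 0 of the 4 genes and 0% of all genes tested passed, although 1499 genes had an unadjusted p below 0.05. DESeq2 called 3 genes, none of them among the 4. Without Lep(ob/ob) mouse 464, 264 of 13709 genes passed in edgeR, and the adjusted p was 0.0516 for Tdh, 0.0675 for Smim24, 0.0997 for 1810007D17Rik and 0.136 for Gal.

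**Figure D2:**
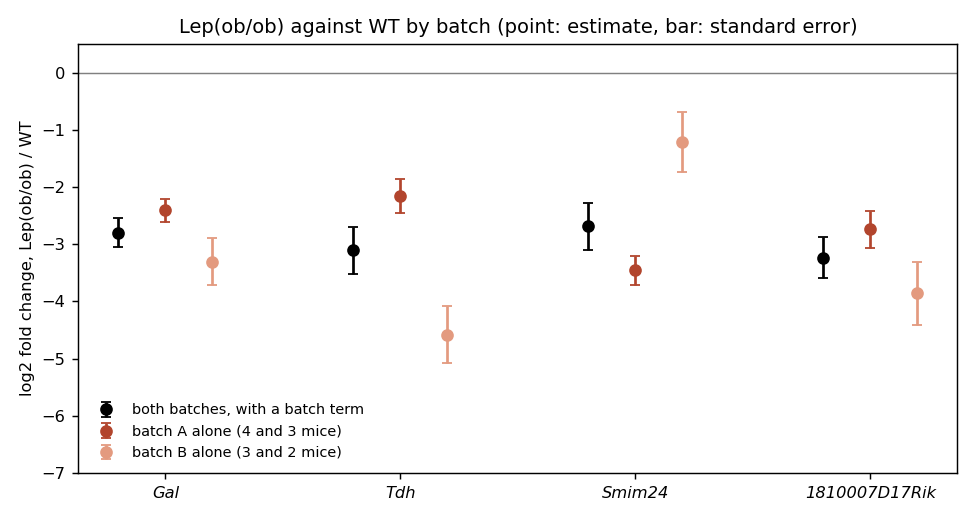
Fitted log2 fold change of Lep(ob/ob) against WT mice for each gene over both batches, in batch A alone and in batch B alone, with standard errors as bars. All 12 points lie below 0. Batch B alone has the lower value for Gal, Tdh (-4.58 against -2.16) and 1810007D17Rik, and the higher one for Smim24 (-1.21 against -3.46).

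The batch term of the model was tested as well. No CCKRi mouse was in batch A, so the size of this term compares untreated mice, lean and obese, between batches. The same mice chose the genes, though by another contrast, so its p-values are descriptions. The batch term was called for 2 of the 4 genes at an adjusted p below 0.05, a threshold that 35.7% of all genes tested passed. Gal was lower in batch B by a log2 fold change of -0.87 (SE 0.26, adjusted p = 0.0156), and its Lep(ob/ob) mice did not overlap between batches, with a mean of 436.5 ± 101.6 (SD, n = 4) in batch A and 187.4 ± 67.2 (SD, n = 3) in batch B. 1810007D17Rik was higher in batch B by 1.02 (SE 0.35, adjusted p = 0.0318), a call lost when any 1 of 6 mice was left out (adjusted p up to 0.117 without Lep(ob/ob) mouse 464). Smim24 had -1.13 (SE 0.44, adjusted p = 0.0527) and passed in DESeq2 (adjusted p = 0.0342) and in edgeR without CCKRi mouse 69 (adjusted p = 0.0295) or without Lep(ob/ob) mouse 417, 461, 463 or 464 (adjusted p = 0.0206 to 0.0444). Tdh had -0.49 (SE 0.42, adjusted p = 0.365). As given above, the acinar marker sum was also lower in batch B.

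Whether blocking CCK receptors moved these genes in obese mice is the question of the treated group. Proglumide mice had 79.5 and 184.4 normalized counts of Gal, and lorglumide mice had 136.9 and 211.0. These values overlap with those of the untreated Lep(ob/ob) mice of batch B (143.5 to 264.7). The log2 fold change of CCKRi against Lep(ob/ob) mice was -0.50 (SE 0.32, adjusted p = 0.465, edgeR), with a 95% confidence interval of -1.17 to 0.17. Within batch B the difference of the mean log2 normalized counts was -0.33 (two-sided exact permutation test, p = 0.514, n = 4 and 3).

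Tdh had few reads under the antagonists. Proglumide mice had 6.29 and 10.2 normalized counts and lorglumide mice 5.39 and 5.96, from raw counts of 5 to 11 per mouse. Untreated Lep(ob/ob) mouse 463 of batch B, whose marker sums stood apart, was below all of them at 4.94, and the other two, at 18.02 and 20.3, were above. The log2 fold change was -1.81 (SE 0.64, 95% confidence interval -3.18 to -0.45), with an unadjusted p of 0.0122 that did not pass over all genes in edgeR (adjusted p = 0.277). Within batch B alone the fitted value was -0.89 (SE 0.51, adjusted p = 0.412), and the exact permutation test gave p = 0.257 (n = 4 and 3), with a difference of -0.79 in mean log2 normalized counts. That difference ran from -0.45 without mouse 461 to -1.37 without mouse 463 (exact p = 0.667 and 0.0667, the latter the smallest that 4 against 2 mice allow). In the fit over both batches it was -2.31 without mouse 463 (adjusted p = 0.205). Without the batch covariate it was -2.18 and passed (adjusted p = 0.0479).

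Smim24 had 11.8 and 49.4 normalized counts with proglumide and 21.6 and 47.7 with lorglumide, which spans the range of the untreated mice of batch B (30.4 to 37.2) on both sides. Its log2 fold change was 0.50 (SE 0.51, 95% confidence interval -0.58 to 1.57, adjusted p = 0.645, edgeR). In batch B alone it was -0.02, and the exact permutation test gave p = 0.629 (n = 4 and 3).

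1810007D17Rik was the one gene of the 4 whose treated mean lay above the untreated mean of batch B. Proglumide mice had 98.3 and 268.2 normalized counts and lorglumide mice 302.9 and 258.6, against 77.2, 53.0 and 185.9 in untreated mice of batch B. Of the treated mice, 3 exceeded all untreated Lep(ob/ob) mice, and mouse 69 (proglumide) did not. The log2 fold change was 0.87 (SE 0.43, 95% confidence interval -0.05 to 1.79, adjusted p = 0.368, edgeR), and the exact permutation test in batch B gave p = 0.143 (n = 4 and 3), where the smallest p it allows is 0.0286. The treated mean of 232 ± 91.1 (SD, n = 4) was 15.5% of the WT mean of batch B.

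Without mouse 69 the log2 fold change was -0.28 for Gal, -1.77 for Tdh, 0.83 for Smim24 and 1.13 for 1810007D17Rik (adjusted p = 0.594, 0.194, 0.321 and 0.172, edgeR). With batch in the model, none of the 4 passed in this comparison with edgeR or DESeq2, and 1 had an unadjusted p below 0.05. Few genes did at all, with 0.0586% of all genes tested at an adjusted p below 0.05, and 14.3% at an unadjusted p below 0.05. None of the 4 was free of overlap between treated and untreated mice of batch B, as 8.49% of all genes were. The intervals reach changes of over 2-fold for Tdh, Smim24, 1810007D17Rik and Gal in at least 1 direction. Changes of that size are thus not excluded. The untreated Lep(ob/ob) mice helped to choose the genes by their low values, and the treated mice did not. As for Nat8, this favours a higher value in the treated mice.

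Against WT, the CCKRi mice are described without a test, because the WT values chose the genes. The log2 fold change was -3.30 (SE 0.34) for Gal, -4.92 (0.60) for Tdh, -2.19 (0.56) for Smim24 and -2.38 (0.44) for 1810007D17Rik. In batch B alone, which holds all CCKRi mice, Smim24 had -1.23 (SE 0.48), a WT mean 2.37 times the CCKRi mean, and without the batch covariate it had -3.12. Every CCKRi mouse was below every WT mouse of batch B for all 4 genes, as for 10.0% of all genes tested. Over the WT mice of both batches this held for Gal, Tdh and Smim24, as for 5.22% of all genes, while the range of 1810007D17Rik in CCKRi mice (98.3 to 302.9) reached above the lowest WT mouse of batch A (265.9). This comparison shares its treated mice with the one above and its WT mice with the first.

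The antagonists were given at different doses, so drug and dose cannot be told apart. Lorglumide against proglumide mice, 2 of each, had a log2 fold change of 0.39 (95% confidence interval -0.55 to 1.33) for Gal and -0.53 (-2.83 to 1.77) for Tdh. It was 0.18 (-1.40 to 1.77) for Smim24 and 0.61 (-0.62 to 1.85) for 1810007D17Rik. The adjusted p was 0.76 to 0.958 in edgeR, and 0% of all genes tested passed, with 913 at an unadjusted p below 0.05 and 20 called by DESeq2. The intervals are wide enough to hold a 2-fold difference for each gene. Without mouse 69, which leaves 1 proglumide mouse, the values were -0.08 for Gal, -0.84 for Tdh, -0.52 for Smim24 and 0.07 for 1810007D17Rik. With another mouse left out, the values reached up to 1.12 for Gal, -0.16 for Tdh, 1.52 for Smim24 and 1.50 for 1810007D17Rik.

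**Figure D3:**
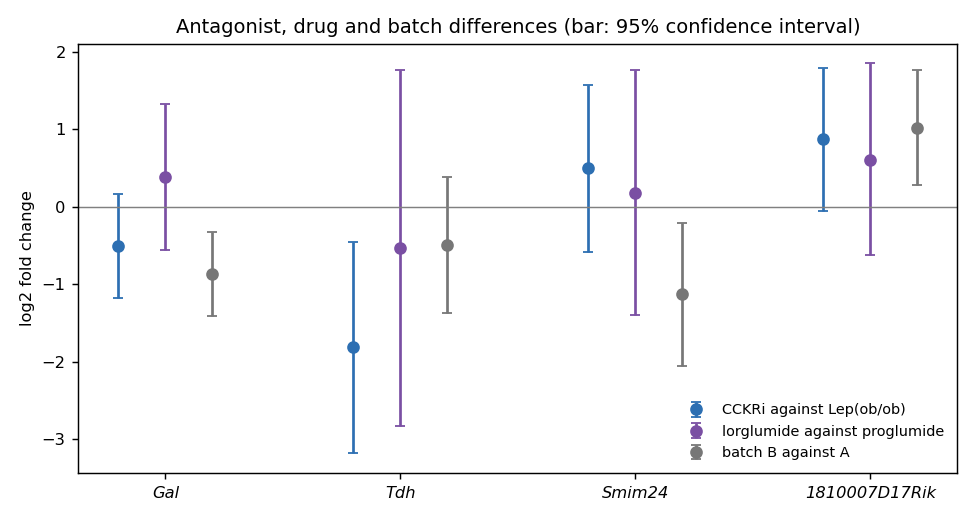
Log2 fold changes of CCKRi against Lep(ob/ob) mice, of lorglumide against proglumide mice and of batch B against batch A for each gene, with 95% confidence intervals as bars. The interval of CCKRi against Lep(ob/ob) excludes 0 before adjustment for Tdh alone (-3.18 to -0.45), and that of the batch for Gal, Smim24 and 1810007D17Rik.

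The partners of galanin were read next. Of the 5 other galanin peptide and receptor genes in the table, Galr1 and Galr3 passed the filter on low counts. Galr3, which encodes a galanin receptor, was near 0 in WT mice and passed that filter only through the obese groups, so its call is given as a description. It had 0 to 2 raw counts in WT mice, 3 to 21 in Lep(ob/ob) mice and 4 to 17 in CCKRi mice, a log2 fold change of 3.08 against WT in Lep(ob/ob) mice (SE 0.73, adjusted p = 0.0132, edgeR) and of 3.85 in CCKRi mice (SE 0.88, adjusted p = 0.0133). At such counts the size of the fold change is uncertain, and within batch B alone both calls were lost, at 1.25 for Lep(ob/ob) mice (adjusted p = 0.563) and 2.40 for CCKRi mice (adjusted p = 0.452). Galr1 had 59.6 ± 36.1 normalized counts (SD, n = 5) in WT mice and 30.2 ± 13.9 (SD, n = 7) in Lep(ob/ob) mice (log2 fold change -0.98, SE 0.49, adjusted p = 0.232). Galr2 had 0 to 2 raw counts and the peptide genes Galp 0 to 2 and Spx 0 to 16 in any mouse. For these lists of partners, 9.07% of all genes tested passed between Lep(ob/ob) and WT mice, and 5.57% between CCKRi and WT mice.

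Galanin is best known from nerves, and the nerve markers were at very low levels in all mice. The 16 neuron markers summed to 4.20 to 6.22 CPM in WT mice, 7.37 to 13.6 CPM in Lep(ob/ob) mice and 5.88 to 11.1 CPM in CCKRi mice. Only 6 of them passed the filter on low counts, of which Nefm and Th were called higher in Lep(ob/ob) mice at an adjusted p below 0.05 and none was lower. Nefm had 1 to 9 raw counts in WT mice against 10 to 52 in the obese ones, and Th 3 to 5 against 2 to 68, so that both passed the filter only through obese mice and the calls are descriptions. Dbh, an enzyme of sympathetic nerves, had 0 counts in every mouse, and Npy at most 5. Gal had at least 1301 raw counts in each WT mouse. Of the 15 islet markers, 10 were higher in Lep(ob/ob) mice and 0 lower, with a median log2 fold change of 2.10, and the part of nerves or islets in the level of Gal was not tested. The 7 glia markers summed to 9.60 to 14.5 CPM in WT mice and 5.80 to 15.03 CPM in Lep(ob/ob) mice.

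Of 18 other tested genes of threonine, serine and glycine metabolism, 2 were lower in Lep(ob/ob) than in WT mice and 0 were higher, with a median log2 fold change of -0.19 against -0.02 over all genes tested. The lower ones were Gatm, which makes the precursor of creatine from glycine and arginine (-0.95, SE 0.24, adjusted p = 0.0189), and Gcsh, a part of the glycine cleavage system (-0.41, SE 0.12, adjusted p = 0.0459). The call of Gcsh was lost in 11 of 12 fits that left out 1 mouse, and that of Gatm in 1, without WT mouse 58 (adjusted p = 0.0561). In batch B alone both were lost (adjusted p = 0.446 and 0.275).

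Gcat, which acts directly after Tdh and forms glycine and acetyl-CoA, had 3098 ± 1391 normalized counts (SD, n = 5) in WT mice and 2189 ± 905.6 (SD, n = 7) in Lep(ob/ob) mice (log2 fold change -0.44, SE 0.22, adjusted p = 0.24). Tha1, a threonine aldolase, had -0.37 (adjusted p = 0.466). The serine hydroxymethyltransferases Shmt1 and Shmt2 had 0.53 and -0.29 (adjusted p = 0.233 and 0.341). Phgdh and Psat1, which make serine, had -0.16 and 0.05 (adjusted p = 0.569 and 0.932). Sds (0 to 4 raw counts) and Gldc (0 or 1 in WT mice, 3 to 13 in Lep(ob/ob) mice) were not tested. In CCKRi against Lep(ob/ob) mice 0 of the 18 passed, and in CCKRi against WT mice 0 of the 18 passed, with medians of -0.03 and -0.28.

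**Figure D4:**
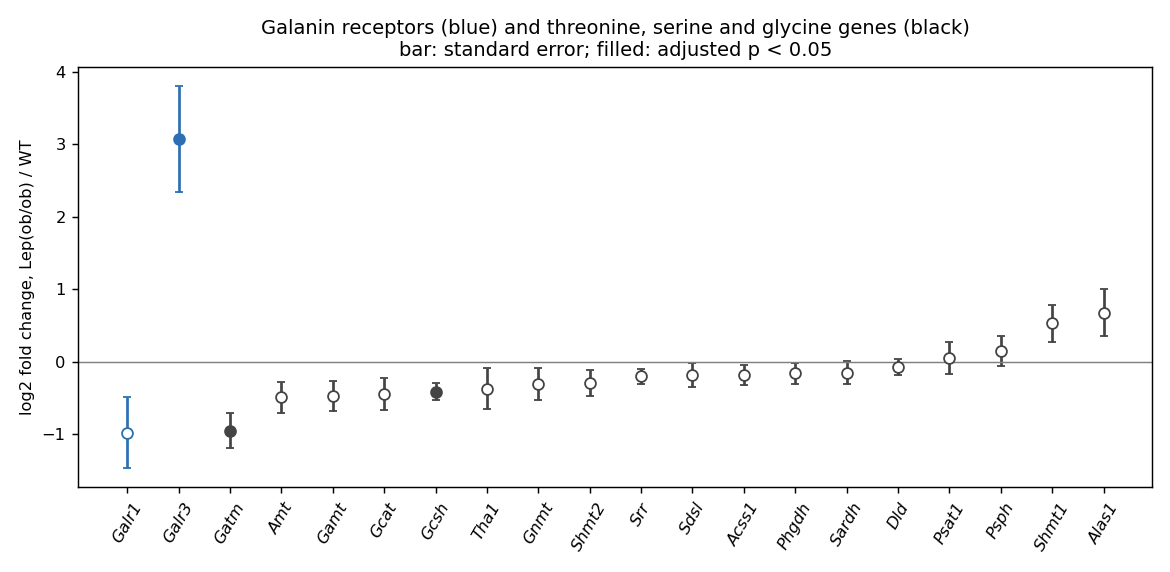
Log2 fold change of Lep(ob/ob) against WT mice, with standard errors as bars, for the tested galanin receptors and for 18 genes of threonine, serine and glycine metabolism without Tdh. Filled points have an adjusted p below 0.05, namely Galr3 (3.08), Gatm (-0.95) and Gcsh (-0.41), and no gene of the second list is below -0.95.

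Of 15 other tested genes named as small integral membrane proteins, a family grouped by size and not by function, Smim3 was lower in Lep(ob/ob) mice. It had 96.6 ± 15.2 normalized counts (SD, n = 5) in WT mice, 46.8 ± 14.1 (SD, n = 7) in Lep(ob/ob) mice and 34.6 ± 11.4 (SD, n = 4) in CCKRi mice. Its log2 fold change was -1.05 (SE 0.23, adjusted p = 0.00732, edgeR) in Lep(ob/ob) mice and -1.46 (SE 0.30, adjusted p = 0.0072) in CCKRi mice. The calls were lost within a batch, with -1.01 for Lep(ob/ob) mice of batch A (adjusted p = 0.0544), -1.05 for those of batch B (adjusted p = 0.23) and -1.44 for CCKRi mice against WT mice of batch B (adjusted p = 0.152). The median of the 15 genes was -0.31 in Lep(ob/ob) against WT mice, and 0 were higher.

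Most neighbouring genes were not called. Within 200 kb of the 4 genes lie 32 tested genes, of which 2 were higher and 3 lower in Lep(ob/ob) than in WT mice (9.07% of all genes tested were called in either direction and 3.14% were lower), with a range of -1.18 to 1.64 and a median of 0.01 on the log2 scale. This window was chosen after the values of the 4 genes had been seen. 1810007D17Rik lies 22.7 kb before Pnlip, the gene of pancreatic lipase on the same strand. Pnlip had a log2 fold change of -0.04 (SE 0.35, adjusted p = 0.962), and the lipase-related genes Pnliprp1 and Pnliprp2 had 0.21 and 0.30 (adjusted p = 0.738 and 0.576). Between them, the lipase pseudogene 1810018F18Rik was lower (-1.18, SE 0.31, adjusted p = 0.0228, with -0.52 in batch A alone and -2.0 in batch B alone, adjusted p = 0.0209 and 0.156), and on the other side Gfra1, a receptor subunit for the GDNF family, was higher (1.58, SE 0.31, adjusted p = 0.00425).

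Next to Gal, Cpt1a, which brings fatty acids into mitochondria and lies 24.2 kb away, had 0.47 (SE 0.17, adjusted p = 0.0977), and Ppp6r3 had a log2 fold change of -0.00 (SE 0.10). Mrpl21, a mitochondrial ribosomal protein gene at 117 kb, was lower (-0.66, adjusted p = 0.0198). Next to Tdh, Mtmr9 at 10.6 kb had 0.13 (adjusted p = 0.545) and Fam167a at 26.8 kb was higher (1.64, SE 0.38, adjusted p = 0.0118). Fam167a had 8.08 to 15.1 normalized counts in WT mice and 21.7 to 50.05 in Lep(ob/ob) mice. It passed the filter on low counts only through the obese groups, so its call is a description. Nfic, a transcription factor gene only 0.794 kb from Smim24, had 0.08 (adjusted p = 0.806), and Dohh at 4.7 kb had -0.09 (adjusted p = 0.828). Of the 18 tested neighbours of Smim24, Pip5k1c was lower (-0.38, adjusted p = 0.0459). In 12 fits that each left out 1 mouse, the call was lost 10 times for Pip5k1c, 3 times for Mrpl21 and 3 times for 1810018F18Rik, and was kept throughout for Fam167a and Gfra1. In batch B alone, all 5 calls were lost (adjusted p = 0.156 to 0.407), and in batch A alone those of Mrpl21 and Pip5k1c (adjusted p = 0.0573 and 0.257).

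**Figure D5:**
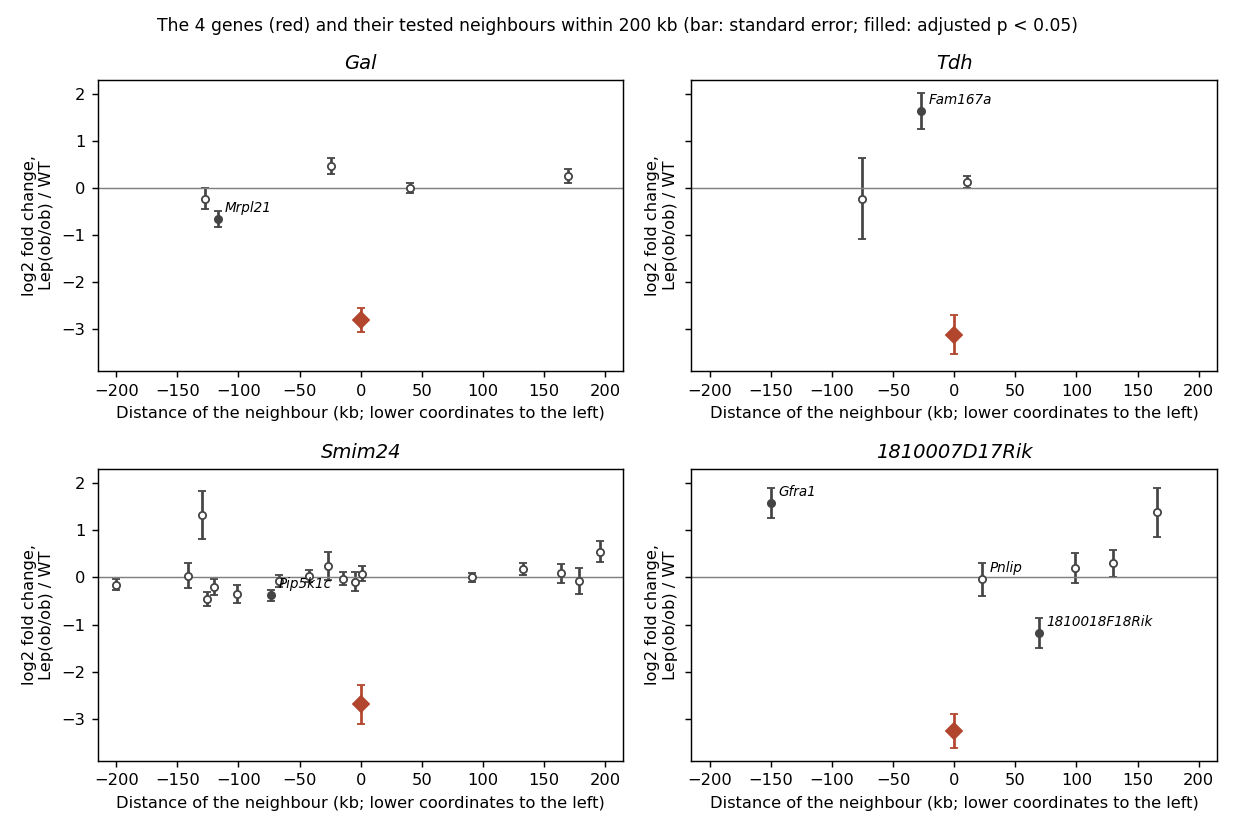
Log2 fold change of Lep(ob/ob) against WT mice, with standard errors as bars, for each of the 4 genes (red diamonds at 0 kb) and for the 32 tested genes within 200 kb, by distance. The 4 genes lie between -2.69 and -3.25, and all neighbours lie between -1.18 and 1.64.

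The genes most like each of the 4 over the 16 mice were found by Pearson correlation of log2 CPM among 10865 genes with a mean log2 CPM of at least 1. The points share libraries, depth and cell mixture, so the values are descriptions. Without any adjustment, Gal was most like Slc16a5, a monocarboxylate transporter family gene (r = 0.97), Tmem64 (0.96) and Tdh (0.95), and Tdh was most like Gal (0.95), Klk1b11 (0.95) and Slc16a5 (0.94). Gal and Tdh were both chosen for their fall in obese mice, so nothing is read from their likeness across these groups. Smim24 was most like Creld2 (0.94) and Erp29 (0.93), both proteins of the endoplasmic reticulum, and Smco4 (0.88). 1810007D17Rik was most like Adpgk, Mtg2 and Ggh (0.93 each).

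After the mean of each group and batch was subtracted, so that the choice of the genes by genotype no longer enters, other genes came first. Gal was most like Txnl1 (0.95), Atp5f1, a subunit of ATP synthase (0.94), and Arl1, a GTPase of the Golgi (0.94). Tdh was most like Pck2, the mitochondrial PEP carboxykinase (0.93), Mars, the methionyl-tRNA synthetase (0.90), and the transcription factor gene Myc (0.89). Smim24 was most like Fam160a1 (0.95), the stress-related transcription factor gene Atf5 (0.94) and Smco4 (0.94). 1810007D17Rik was most like Cisd2, Fgfr1op2 and Kdelr3, a receptor that returns proteins to the endoplasmic reticulum (0.94 each). None of the 4 was among the first 3 of another once these means were removed.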

How the data were processed

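Pancreas RNA of 16 mice was sequenced from poly(A)-selected, strand-specific libraries. Per the submitters' processing notes and methods, the authors used Trim Galore 0.6.7, cutadapt 3.5, STAR 2.7.9 on mm10, and DESeq2. The read counter, its strand setting and the annotation are not given in the sources used here. The authors deposited raw counts for 24411 gene symbols and a normalized signal for 17548, equal to the raw count over 1 size factor per mouse (0.617 to 1.44). Total counts were 9.87 to 34.5 M per mouse (median 15 M). No 2 libraries of a group agreed within sampling noise (chi-square per gene 8.09 to 409).

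Raw counts were analysed in R with edgeR 4.0.16 (TMM, filterByExpr, 13660 genes, quasi-likelihood test, Benjamini-Hochberg adjustment over all genes), with group and batch for all 16 mice in 1 model. The interaction used a mean for each group and batch, and the drugs entered as separate groups. Log2 CPM used a prior count of 2, and permutation tests log2(normalized count + 1). DESeq2 1.42.0 was an alternative, beside those of the closing section. Scripts were tested on simulated data. Whether the mice shared litters or cages is not given. The p-values set each difference against the spread between these mice and treat the mice as independent.

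The members, lists and tests were chosen with earlier results of these data known. Genes named beside the 4 are every measured gene of the galanin list, chosen enzymes and any called gene of the threonine list, called Smim genes, the next 5 falls, the 3 genes most like each member, and called or closest neighbours, the last chosen after their values were seen. Other marker lists were also summed. Between Lep(ob/ob) and WT mice, 1 of 8 adipocyte genes was higher (Lep, with a list median of 1.54 on the log2 scale), Krt7 of the duct genes was higher (another gene of that list is not reported here), 1 of 4 liver genes was higher (Ttr) and 1 lower (Cyp2e1), and 1 of 6 endothelial genes was lower (Flt1). No macrophage, lymphocyte or fibroblast gene was called (medians 0.42, -0.31 and 0.40). In CCKRi against Lep(ob/ob) mice 0 genes of any list were called, with the lowest median in macrophage genes (-1.22). Of 2 tested intestinal genes, 1 (Vil1) was higher in Lep(ob/ob) mice, with Alpi, Cdx1 and Cdx2 at 0 in all mice.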

Additional observations from a re-analysis of the deposited data

Results flagged for a closer look

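In CCKRi mice, 1810007D17Rik had 1 value apart from the others. Mouse 69, given proglumide, had 98.3 normalized counts, and the other 3 mice had 258.6 to 302.9. The gap to the nearest mouse was 0.859 of the whole range of log2 normalized counts, above Dixon's critical value of 0.829 for 4 samples. Mouse 69 was also the lowest of the treated mice for Gal (79.5) and Smim24 (11.8), without passing that limit. The islet marker sum of this library was 1634 CPM against 6583 to 15640 in the other 3, its adipocyte sum 2710 CPM against 424.7 to 746.6, and its acinar sum the lowest of the 4, at 107800 CPM. The part of these markers in the value was not tested. Of 12 sets of values tested this way (4 genes in 3 groups) this was the only one past its limit, and chance alone would place about 1 in 20 there.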

How the results depend on the processing

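No paired analysis was possible because each mouse number occurs in 1 group only. In Lep(ob/ob) against WT mice, every fit kept the 4 genes lower, between -4.58 and -1.21. Tdh moved from -3.11 to -2.16 in batch A alone and -4.58 in batch B alone, and Smim24 from -2.69 to -1.21 in batch B alone. For CCKRi against WT mice, Gal moved to -3.82 without the batch covariate, Smim24 from -2.19 to -3.12 there and to -1.23 in batch B alone and with only those 2 groups, and Tdh to -5.46 with only those 2 groups, to -5.47 in batch B alone and to between -5.16 and -4.28 when mice were left out. In CCKRi against Lep(ob/ob) mice, Tdh passed without the batch covariate (-2.18, adjusted p = 0.0479), Gal moved from -0.50 to -1.10 there (adjusted p = 0.063) and 1810007D17Rik from 0.87 to 1.44 (adjusted p = 0.0542), and Smim24 turned from 0.50 to -0.13 there, to -0.07 with only those 2 groups and to -0.02 in batch B alone. Leaving out mice gave 0.12 at most for Smim24 in the permutation test of batch B (-0.54 at least), an alternative added after the data had been seen. For the batch term, Smim24 passed with DESeq2 (-1.03) and without the 50 most counted genes (-1.14), and ran from -1.34 to -0.75 with mice left out, while 1810007D17Rik ran from 0.80 to 1.27. Between the drugs, Gal ran from -0.08 to 1.12, Tdh from -0.84 to -0.16, Smim24 from -0.52 to 1.52 and 1810007D17Rik from 0.07 to 1.50. Where 1 mouse was left in a drug, it was assumed to vary like the other groups. The cause was not tested. Tdh has no value with at least 10 counts in every mouse, and CCKRi mice have none in batch A.

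The number of genes called between CCKRi and Lep(ob/ob) mice was 8 and rose to 570 without the batch covariate and to 104 with DESeq2. It fell to 5 without the 50 most counted genes in the scaling, to 3 with only those 2 groups, to 2 in batch B alone, to 0 with either drug alone and, with 1 mouse left out, to 0 without CCKRi mouse 72 or 74, to 3 without Lep(ob/ob) mouse 472, 447 or 461, to 4 without CCKRi mouse 76 and to 5 without Lep(ob/ob) mouse 441 or 417 (counts at an unadjusted p below 0.05 were 994 to 2315 where 0 were called). Between Lep(ob/ob) and WT mice it was 1239, and 798 without the batch covariate, 782 with at least 10 counts in every mouse and 8 in batch B alone, where 2 WT and 3 Lep(ob/ob) mice remain. Between CCKRi and WT mice it was 761, and 1428 without the batch covariate, 438 with at least 10 counts in every mouse, 0.369 times as many with only those 2 groups and 13 in batch B alone. Depth limits Tdh most, at 5 to 16 raw counts in obese mice of batch B.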
